A study of Saccharomyces cerevisiae with 6 samples.

Results

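The tricarboxylic acid (TCA) cycle genes of budding yeast were followed, with the genes through which pyruvate enters the cycle and the mitochondrial carriers that feed it, across 3 carbon sources in cells with and without extra *PPZ1*. *PPZ1* encodes a Ser/Thr protein phosphatase. The 34 genes were chosen by name for their known roles, when earlier results of these data had been seen. All 34 were found among the 6687 features of the mRNA-Seq table. Of these, 31 stood under the listed name and 3 were found by their position and systematic name: *MPC1* as FMP37, *MPC2* as YHR162W, and *DIC1* (YLR348C) as the number 37226, which a spreadsheet makes of a name read as a date. All 34 had a mean of at least 10 CPM (counts per 1000000 reads) over the 6 libraries, as did 5382 features in all, with which they are compared.

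Cells overexpressing *PPZ1* were strain BY4741 with *PPZ1* in pCM190, a multicopy plasmid marked with *URA3* whose tetO promoter is shut off by doxycycline. Control cells were BY4741 with the empty pCM190, so that the strain, the plasmid backbone and the doxycycline treatment were common to both. Where strains are compared below, the word stands for these kinds of cells, which differ in the plasmid insert only. Cultures were held overnight with 100 µg/ml doxycycline, then freed of it, grown from an OD600 of 0.2 to 0.55 over 3.5 h, collected on filters and kept for 1 h in medium with 2% galactose, 0.25% glucose or 2% glucose. There was 1 library for each plasmid and medium, so there is no replicate error, no difference was tested, and the errors given are standard errors (SE) of read counting alone.

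The TCA cycle joins acetyl groups to oxaloacetate, oxidizes the citrate formed through oxoglutarate and succinate back to oxaloacetate, and passes the electrons to the respiratory chain. Pyruvate enters mitochondria through a carrier made of Mpc1 with Mpc2 or Mpc3, and is turned into acetyl-CoA by pyruvate dehydrogenase or, in the cytosol, into oxaloacetate by pyruvate carboxylase. In *Saccharomyces cerevisiae* growing fast on glucose most pyruvate is fermented and many genes of the cycle are repressed. Their expression is known to depend on the Hap complex, which binds CCAAT and whose activating subunit is Hap4, and for the first steps of the cycle also on the retrograde regulators Rtg1 and Rtg3.

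Upstream sequences of 4 members are shown because CCAAT is the core of the Hap site. They span 400 to 221 bases before the start codon, on the strand of the gene, in the RefSeq genome build R64. The windows are chrXIV:631282-631461 (minus strand) for *CIT1*, mitochondrial citrate synthase, chrXI:171350-171529 (minus strand) for *SDH1*, the flavoprotein of succinate dehydrogenase, chrVII:384796-384975 (plus strand) for *PYC1*, pyruvate carboxylase, and chrV:546417-546596 (plus strand) for *PDA1*, a subunit of pyruvate dehydrogenase. Capitals mark CCAAT, which reads ATTGG where it lies on the opposite strand.
CIT1: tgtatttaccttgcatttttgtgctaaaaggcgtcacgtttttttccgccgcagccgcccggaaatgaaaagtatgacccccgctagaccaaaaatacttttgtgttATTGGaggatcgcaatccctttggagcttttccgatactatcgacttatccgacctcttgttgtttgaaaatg
SDH1: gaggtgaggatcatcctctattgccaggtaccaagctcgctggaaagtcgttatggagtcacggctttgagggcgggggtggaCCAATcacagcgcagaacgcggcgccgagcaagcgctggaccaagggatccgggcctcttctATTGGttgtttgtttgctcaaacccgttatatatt
PYC1: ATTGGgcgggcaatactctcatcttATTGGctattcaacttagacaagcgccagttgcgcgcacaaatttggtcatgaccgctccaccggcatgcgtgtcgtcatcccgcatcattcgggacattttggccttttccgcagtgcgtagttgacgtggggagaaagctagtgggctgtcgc
PDA1: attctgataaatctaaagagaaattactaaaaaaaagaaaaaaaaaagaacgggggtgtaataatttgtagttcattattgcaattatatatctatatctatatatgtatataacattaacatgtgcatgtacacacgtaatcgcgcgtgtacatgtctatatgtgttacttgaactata
The first 3 genes were among those far higher in galactose than in 2% glucose, and *PDA1*, with no CCAAT in the window, was not. These 4 are examples, and CCAAT did not go with the galactose change in every member.

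Over the longer window of 300 bases that starts 400 bases before the start codon, searched on both strands, CCAAT was found for 25 of the 34 members (73.5%) and in 43.9% of the 5382 windows. The longer form CCAATNA, a subset of these matches, was found for 17 members (50%) and in 15.5% of all windows. GTCAC, the core bound by the retrograde regulators, was found for 15 members (44.1%) and in 28.7% of all windows. A core of the glucose repressor Mig1 (GGGG preceded by GC, GT, CC or CT) was found for 13 members (38.2%) and in 14.6% of all windows. These are matches of letters and do not show binding. CCAAT was present for 18 of the 22 members at least 2-fold higher in galactose in control cells, with *MPC2*, *IDH2*, *LSC1* and *LSC2* the exceptions, and for 7 of the other 12. Those 7 were *LAT1*, *PDX1*, *PTC5*, *PYC2*, *IDP1*, *ODC2* and *MAE1*, the last of them lower in galactose.

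Reads in features numbered 3932576 (galactose), 1845237 (0.25% glucose) and 4921218 (2% glucose) in cells overexpressing *PPZ1*, against 3673635, 6784469 and 5644263 in the same media in control cells, and 10 CPM was 19.0 to 67.8 reads. CPM keep the deposited scaling, since each scaled value was divided by the total of the deepest library. *PPZ1* stood at 2705 CPM in galactose, 17798.5 in 0.25% and 12538 in 2% glucose in cells with the plasmid copy, and at 75.0 to 94.3 CPM in control cells. The a-cell gene *STE2* (145 to 592 CPM) and the plasmid marker *URA3* (1494 to 5575 CPM) were present, whereas *MF(ALPHA)1* of the other mating type stayed at or under 2.45 CPM, *MET17* had 0 reads and *LEU2* had at most 1. The library of cells overexpressing *PPZ1* in 0.25% glucose stood apart: its difference from control cells ran with feature length across the 5382 genes (Spearman correlation -0.67, a description over genes of the same 2 libraries), with a median log2 difference of 0.30 in the shortest 10% of genes and -0.86 in the longest 10%. It was also the shallowest, and the part of length and depth in the results that use it was not tested. The calls and farthest differences that use it are therefore given also with the length trend removed (a running median over genes ranked by length) or with median-of-ratios scaling, and the galactose comparisons do not use that library.

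The members took 2.13% of the reads in galactose (95% Wilson interval 2.12 to 2.15), 0.677% in 0.25% glucose (0.665 to 0.689) and 0.611% in 2% glucose (0.604 to 0.618) in cells overexpressing *PPZ1*. In control cells they took 2.33% (2.31 to 2.34), 0.724% (0.717 to 0.730) and 0.591% (0.585 to 0.597) in the same media. Their share was thus highest in galactose and lowest in 2% glucose with either plasmid. Such shares are of RNA pooled from a whole culture, in which fewer cells expressing a gene and less RNA per cell cannot be told apart.

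Levels per length, in CPM per kb of feature, set the order among genes. The median member stood at 315 in galactose, 98.6 in 0.25% glucose and 94.7 in 2% glucose in cells overexpressing *PPZ1*, against 328, 126 and 88.9 in control cells, whereas the median of all genes lay between 37.4 and 48.0 in the 6 libraries. In 2% glucose the highest member was *MPC2*, a subunit of the pyruvate carrier, with 802 CPM per kb in cells overexpressing *PPZ1* and 788 in control cells. After it came the pyruvate dehydrogenase genes *PDB1*, *PDA1* and *LAT1* and *OAC1*, for an oxaloacetate carrier. *OAC1* stood behind *PDB1* and *PDA1* with *PPZ1* (384 CPM per kb) and ahead of them in control cells (426). The lowest were *CIT3*, a second mitochondrial citrate synthase, at 3.10 with *PPZ1* and 1.12 CPM per kb in control cells, and the kinase genes *PKP1* and *PKP2*. In galactose *CIT1* led with 2351 CPM per kb in cells overexpressing *PPZ1* and 2801 in control cells, and *MPC2* followed with 1769.7 and 1919 in the same cells. *CTP1*, the citrate carrier, was then the lowest, at 23.7 with *PPZ1* and 22.7 in control cells.

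**Figure D1:**
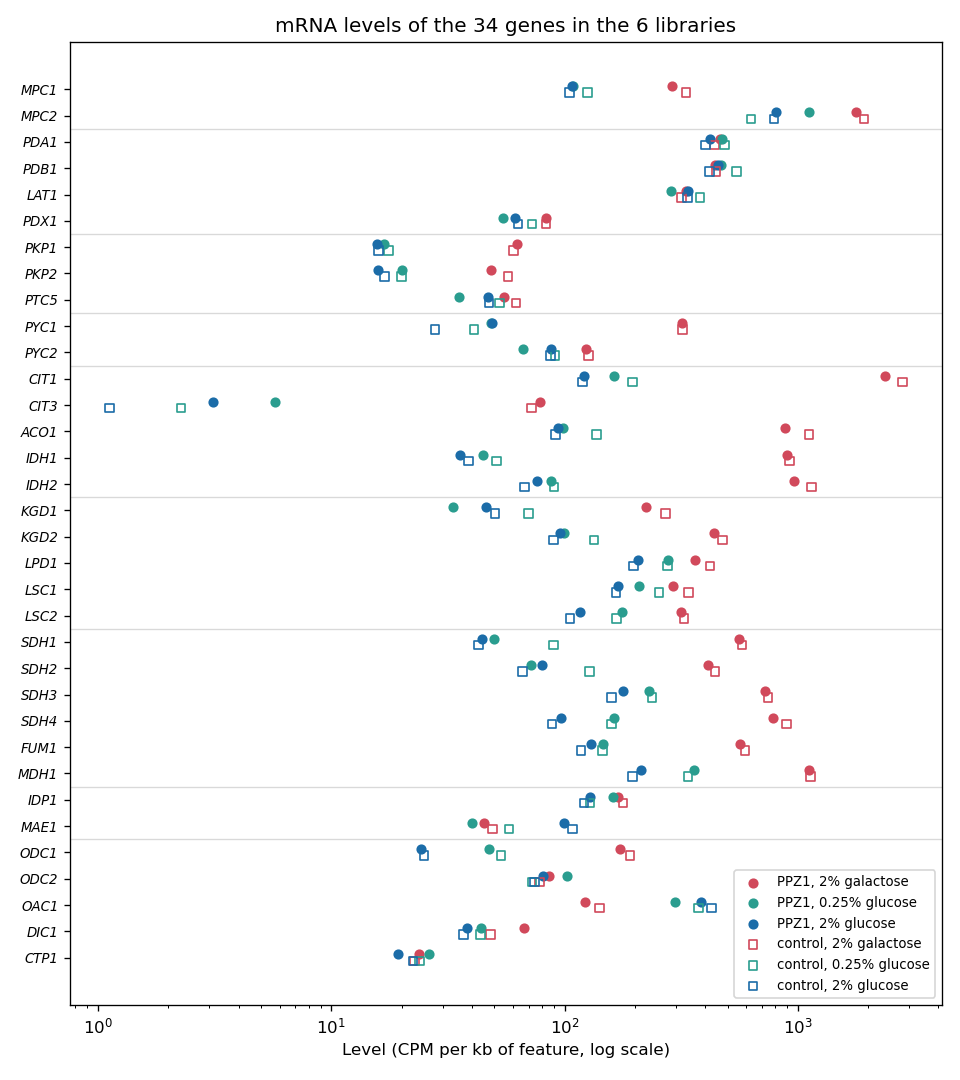
Levels of the 34 genes in CPM per kb of feature (log scale), grouped by role from pyruvate entry (top) to carriers (bottom), with filled circles for cells overexpressing *PPZ1* and open squares for control cells and a colour for each medium. The galactose points of the cycle enzymes lie to the right of both glucose points, as for *CIT1* at 2351 (with *PPZ1*) and 2801 (control) CPM per kb, while those of *MAE1* and *OAC1* lie to the left of their 2% glucose points.

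All 16 enzyme genes of the cycle were higher in galactose than in 2% glucose in both kinds of cells. In cells overexpressing *PPZ1*, 20 of the 34 members were at least 2-fold higher in galactose, beside 19.5% of all genes, and 2 at least 2-fold lower, beside 21.2%. In control cells these numbers were 22 members higher, beside 22.7% of all genes, and 2 lower, beside 19.8%. The 20 are the 22 without *LPD1* and *LSC1*, and *MAE1* and *OAC1* were the lower ones in both. The median log2 change of the members was 1.499 with *PPZ1* and 1.68 in control cells, against medians of -0.09 and 0.04 for all genes. For the 16 cycle enzymes the medians were 2.37 and 2.62, and for the other 18 members 0.42 and 0.39. No replicate error stands behind these counts, and both galactose responses are taken against 1 library in 2% glucose each. *CIT3*, at 1.75 to 8.96 CPM in the glucose libraries, passed the 10 CPM minimum through galactose, so its call there was set by that minimum.

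The steps from acetyl-CoA to oxoglutarate held the highest ratios. *CIT1* (YNR001C, chromosome XIV, 629622 to 631061) stood at 3621 CPM in galactose, 251 CPM in 0.25% glucose and 187 CPM in 2% glucose in cells overexpressing *PPZ1*, against 4314, 300.4 and 183 CPM in the same media in control cells. Its log2 change in galactose was 4.27 ± 0.05 with *PPZ1* (19.4-fold) and 4.55 ± 0.05 in control cells (23.5-fold). *IDH1* and *IDH2* encode the 2 subunits of the NAD-dependent isocitrate dehydrogenase. *IDH1* stood at 1065 CPM in galactose, 52.7 in 0.25% and 42.0 in 2% glucose with *PPZ1*, against 1087, 60.4 and 45.9 CPM in control cells. *IDH2* stood at 1168, 105 and 92.0 CPM in the same media with *PPZ1*, against 1383, 109 and 81.4 CPM in control cells. The ratio of *IDH1* to *IDH2* per kb was 0.933 in galactose and 0.467 in 2% glucose with *PPZ1*, against 0.804 and 0.576 in control cells, so the subunit genes were closer to each other in galactose. *ACO1*, for aconitase, stood at 2146 CPM in galactose, 239.7 in 0.25% and 228 in 2% glucose with *PPZ1*, and at 2723, 333 and 223 CPM in control cells. *CIT3* (YPR001W, chromosome XVI, 556377 to 557837) stood at 123 CPM in galactose, 8.96 in 0.25% and 4.84 in 2% glucose with *PPZ1*, against 113, 3.54 and 1.75 CPM in control cells. Its galactose levels were alike in both strains while its glucose levels rested on 10 to 24 reads, so its log2 changes of 4.41 ± 0.25 with *PPZ1* and 5.37 ± 0.30 in control cells depend on the 1 CPM added.

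The steps from oxoglutarate to succinate differed less between the media than those before. *KGD1* and *KGD2* encode the first subunits of the oxoglutarate dehydrogenase complex. *KGD1* (YIL125W, chromosome IX, 122689 to 125733) stood at 705 CPM in galactose, 105 in 0.25% and 145 in 2% glucose with *PPZ1*, against 851, 220.4 and 158 CPM in control cells. *KGD2* stood at 650.1, 148 and 143 CPM in these media with *PPZ1*, against 707, 199 and 134 CPM in control cells. *LPD1*, for the dihydrolipoamide dehydrogenase that this complex shares with pyruvate dehydrogenase, stood at 581 CPM in galactose, 441 in 0.25% and 329 in 2% glucose with *PPZ1*, and at 670.4, 441 and 316 CPM in control cells. Its galactose ratio was 1.76-fold with *PPZ1* and 2.12-fold in control cells, that is, just under and just over 2-fold. *LSC1* and *LSC2* encode the succinyl-CoA ligase subunits. *LSC1* was at the border in the same way, with 318, 227 and 185 CPM in galactose, 0.25% and 2% glucose with *PPZ1* and 369.7, 277 and 181 CPM in control cells. *LSC2* stood at 435, 243 and 161 CPM with *PPZ1* and at 449.9, 230.4 and 146 CPM in control cells. With median-of-ratios scaling *LSC1* fell short of 2-fold in control cells too (log2 change 0.96).

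From succinate to oxaloacetate all 6 genes were at least 4-fold higher in galactose. *SDH1* (YKL148C, chromosome XI, 169207 to 171129) stood at 1132 CPM in galactose, 101 in 0.25% and 89.6 in 2% glucose with *PPZ1*, against 1165, 181 and 86.3 CPM in control cells. *SDH2* (YLL041C, chromosome XII, 53131 to 53931), for the iron-sulfur subunit, stood at 371, 64.8 and 71.8 CPM with *PPZ1* and at 397, 115 and 59.5 CPM in control cells. *SDH3* and *SDH4* encode the membrane anchor of succinate dehydrogenase. *SDH3* stood at 502, 160.2 and 123 CPM in galactose, 0.25% and 2% glucose with *PPZ1* and at 519, 165 and 111 CPM in control cells. *SDH4* stood at 503, 105 and 62.1 CPM with *PPZ1* and at 575, 103 and 56.9 CPM in control cells. The subunits of 1 enzyme thus differed in their galactose response, from a log2 change of 2.01 ± 0.07 (*SDH3*) to 3.64 ± 0.07 (*SDH1*) with *PPZ1* and from 2.22 ± 0.07 to 3.74 ± 0.07 for the same genes in control cells. *FUM1*, for fumarase, stood at 881 CPM in galactose, 229 in 0.25% and 203 in 2% glucose with *PPZ1*, against 931, 227 and 184 CPM in control cells. *MDH1*, for mitochondrial malate dehydrogenase, stood at 1235, 395 and 235 CPM in these media with *PPZ1*, against 1247, 374 and 216 CPM in control cells.

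The genes of the pyruvate dehydrogenase complex other than *LPD1*, given above, hardly differed between the media, while the genes of its kinases did. *PDA1* stood at 631 CPM in galactose, 642 in 0.25% and 571 in 2% glucose with *PPZ1*, against 597, 661 and 548 CPM in control cells. *PDB1*, for the beta subunit of the same first enzyme, stood at 527, 563 and 548 CPM with *PPZ1*, against 534, 653 and 501 CPM in control cells. *LAT1*, for the acetyltransferase core, stood at 515, 440.4 and 525 CPM with *PPZ1*, against 491, 589 and 519.9 CPM in control cells. *PDX1* encodes the component that anchors Lpd1 to the complex. It stood at 110.4 CPM in galactose, 72.2 in 0.25% and 81.3 in 2% glucose with *PPZ1*, against 111, 96.5 and 84.0 CPM in control cells. The log2 changes of these 4 genes in galactose lay between -0.06 (*PDB1*) and 0.44 (*PDX1*) with *PPZ1* and between -0.08 (*LAT1*) and 0.39 (*PDX1*) in control cells. *PKP1* and *PKP2* encode kinases that inhibit the complex, and *PTC5* a phosphatase that reactivates it. *PKP1* stood at 80.2 CPM in galactose, 21.6 in 0.25% and 20.2 in 2% glucose with *PPZ1*, against 77.7, 22.6 and 20.5 CPM in control cells. *PKP2* stood at 76.5, 31.6 and 25.0 CPM with *PPZ1*, against 89.9, 31.5 and 26.6 CPM in control cells. Both kinase genes were thus 3.06- to 3.98-fold higher in galactose with *PPZ1* and 3.38- to 3.79-fold in control cells. *PTC5* stood at 99.9 CPM in galactose, 64.3 in 0.25% and 85.7 in 2% glucose with *PPZ1*, against 112, 95.5 and 86.1 CPM in control cells, less than 1.5-fold higher in galactose in either. *PTC6*, another phosphatase gene and not itself a member, stood at 65.8 CPM in galactose and 21.2 in 2% glucose with *PPZ1*. In control cells *PTC6* stood at 55.3 and 16.8 CPM. Its log2 changes in galactose were 1.59 with *PPZ1* and 1.66 in control cells.

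Among the side enzymes and carriers 2 genes were at least 2-fold lower in galactose. *MAE1* (YKL029C, chromosome XI, 382716 to 384725), for the mitochondrial malic enzyme, stood at 94.9 CPM in galactose, 84.8 in 0.25% and 209 in 2% glucose with *PPZ1*, against 104, 122 and 227 CPM in control cells. *OAC1* (YKL120W, chromosome XI, 217344 to 218318) stood at 132, 318 and 413 CPM in these media with *PPZ1*, against 152, 402 and 458 CPM in control cells. Their log2 changes in galactose were -1.13 ± 0.09 and -1.64 ± 0.07 with *PPZ1*, against -1.13 ± 0.08 and -1.58 ± 0.07 in control cells. *IDP1*, for the mitochondrial NADP-dependent isocitrate dehydrogenase, stood at 235 CPM in galactose, 224 in 0.25% and 178 in 2% glucose with *PPZ1* and at 246, 178 and 168 CPM in control cells. *DIC1*, for the dicarboxylate carrier, stood at 67.0, 43.7 and 37.9 CPM with *PPZ1* and at 48.0, 43.5 and 36.8 CPM in control cells. *CTP1* stayed between 19.4 and 26.3 CPM with *PPZ1* and between 22.4 and 23.9 CPM in control cells.

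**Figure D2:**
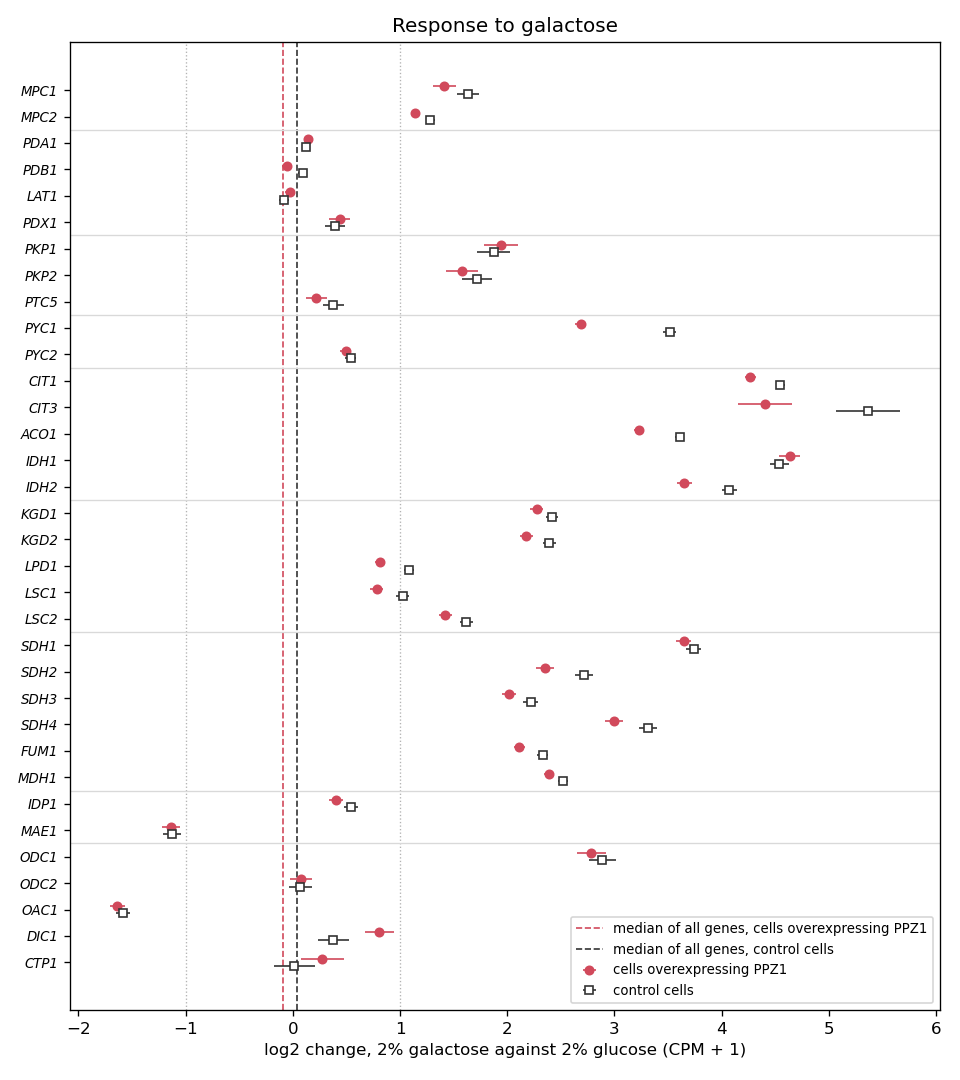
Log2 change of each of the 34 genes in 2% galactose against 2% glucose, after adding 1 CPM, in cells overexpressing *PPZ1* (filled circles) and control cells (open squares), with bars for the counting SE, dashed lines for the median of all genes and dotted lines at 2-fold. The 16 cycle enzymes, *LPD1* among them, lie to the right of both medians (-0.09 with *PPZ1*, 0.04 in control cells). The other pyruvate dehydrogenase genes lie near these medians, and *MAE1* and *OAC1* lie to the left.

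Several steps have a pair of genes, and which of them was the higher differed with the medium. *PYC1* (YGL062W, chromosome VII, 385196 to 388732) stood at 1153 CPM in galactose, 176 in 0.25% and 178 in 2% glucose with *PPZ1*, against 1166, 149 and 101 CPM in control cells. *PYC2*, for the second pyruvate carboxylase, stood at 450.3, 242 and 319.8 CPM with *PPZ1*, against 461, 331 and 317 CPM in control cells. Per kb, *PYC1* was 2.56 times *PYC2* in galactose and 0.559 times in 2% glucose with *PPZ1*, against 2.54 and 0.3202 times in control cells. These 2 genes share a run of 200 identical bases, and 8.44% of the 50-base windows of *PYC2* occur in *PYC1*, so some reads may be assigned to the wrong copy and both values are uncertain to that degree. No other pair named here shares a 50-base window.

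*ODC1* and *ODC2* encode carriers of oxodicarboxylic acids. *ODC1* (YPL134C, chromosome XVI, 298571 to 299503) stood at 178 CPM in galactose, 49.0 in 0.25% and 25.0 in 2% glucose with *PPZ1*, against 197, 55.0 and 25.7 CPM in control cells. *ODC2* stood at 87.5, 104 and 82.7 CPM with *PPZ1*, against 79.9, 74.3 and 76.2 CPM in control cells. *ODC1* per kb was 2.02 times *ODC2* in galactose and 0.300 times in 2% glucose with *PPZ1*, and 2.44 and 0.335 times in control cells, so the order was reversed between these media with either plasmid.

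The balance of the pyruvate carrier genes also differed with the medium. *MPC1* stood at 142 CPM in galactose, 53.7 in 0.25% and 52.9 in 2% glucose with *PPZ1*, against 163, 61.6 and 51.8 CPM in control cells. *MPC2* (chromosome VIII, 423072 to 423461), the partner used in fermentation, stood at 867, 547 and 393 CPM with *PPZ1*, against 941, 308 and 386 CPM in control cells. *MPC3*, its respiratory counterpart and not itself a member, stood at 943 CPM in galactose, 21.1 in 0.25% and 6.05 in 2% glucose with *PPZ1*, against 1081, 13.0 and 5.95 CPM in control cells. *MPC3* per kb was therefore 0.985 times *MPC2* in galactose (95% counting interval 0.941 to 1.03) and 0.0140 times in 2% glucose with *PPZ1*. In control cells the ratio was 1.04 (0.995 to 1.09) in galactose and 0.0140 in 2% glucose.

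*CIT2*, the peroxisomal citrate synthase and the standard reporter of the retrograde pathway, stood at 3268 CPM in galactose, 158 in 0.25% and 137 in 2% glucose with *PPZ1*, against 3429.6, 57.3 and 55.7 CPM in control cells. *CIT1* per kb was 1.07 times *CIT2* in galactose, 1.54 times in 0.25% and 1.31 times in 2% glucose with *PPZ1*, against 1.21, 5.05 and 3.17 times in control cells. The mitochondrial gene thus stood further above the peroxisomal gene in control cells on glucose than in the other libraries.

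**Figure D3:**
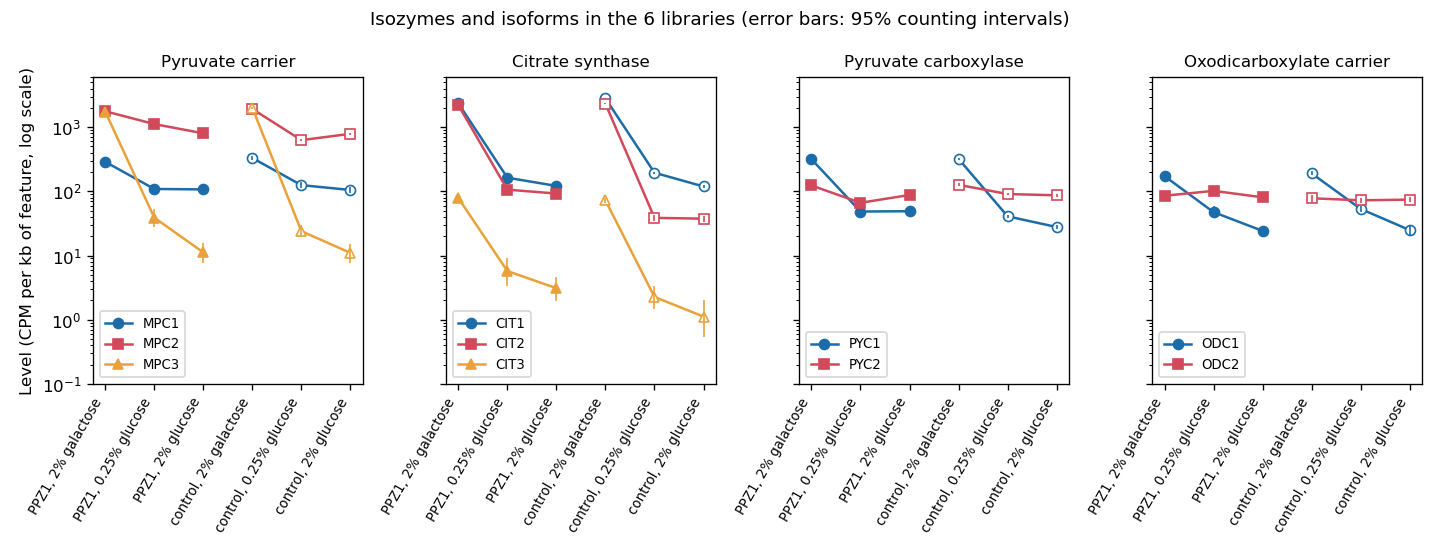
Levels of isozymes and carrier subunits in CPM per kb of feature (log scale) in the 6 libraries, with filled symbols for cells overexpressing *PPZ1*, open symbols for control cells and bars for 95% counting intervals. *MPC3* meets *MPC2* only in galactose, the lines of *PYC1* and *PYC2* and of *ODC1* and *ODC2* cross between galactose and 2% glucose, and *CIT2* lies closer to *CIT1* on glucose with *PPZ1* (1.31 times in 2% glucose) than in control cells (3.17 times).

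Low glucose gave small changes in the same enzymes. In cells overexpressing *PPZ1* no member was at least 2-fold higher in 0.25% than in 2% glucose, beside 1.9% of all genes, and 1 member, *MAE1*, was at least 2-fold lower, beside 5.09%. In control cells 2 members were at least 2-fold higher, *SDH1* and *ODC1*, beside 1.19% of all genes, and none was 2-fold lower, beside 0.167%. The median log2 change of the members was 0.18 with *PPZ1* and 0.39 in control cells, and that of all genes -0.09 and 0.13. Median-of-ratios scaling, which centres all genes near 0 by its construction, gave the members a median of 0.27 in both. For the 16 cycle enzymes the median was 0.31 with *PPZ1* and 0.59 in control cells, where each of them was higher in 0.25% glucose, from 0.30 ± 0.06 (*FUM1*) to 1.06 ± 0.08 (*SDH1*). These 2 medians keep the deposited scaling, on which the median of all genes was also lower with *PPZ1* (-0.09) than in control cells (0.13). They therefore do not show a weaker response of the cycle enzymes in particular. The low-glucose and the galactose responses of a strain share its 2% glucose library.

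*ODC1* was the most responsive carrier gene, with log2 changes of 0.94 ± 0.19 with *PPZ1* (1.03 with the median of ratios) and 1.07 ± 0.14 in control cells. *MDH1* (0.74 ± 0.07 with *PPZ1*, 0.79 ± 0.05 in control cells), *SDH4* (0.75 ± 0.13 and 0.84 ± 0.10) and *LSC2* (0.59 ± 0.08 and 0.65 ± 0.06) differed between the strains by less than their counting errors with the deposited scaling. With the median of ratios *MDH1* and *LSC2* were higher with *PPZ1* than in control cells by 0.16 ± 0.08 and 0.14 ± 0.10. *MAE1* had log2 changes of -1.29 ± 0.12 with *PPZ1* and -0.90 ± 0.06 in control cells. Its call moved with the scaling, since the values were -1.21 with *PPZ1* and -1.02 in control cells with the median of ratios, and -0.99 and -1.07 with the length trend removed. *SDH1* and *ODC1* in control cells came short of 2-fold in both alternatives, at 0.94 and 0.95 with the median of ratios and 0.88 and 0.94 without the length trend.

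The low-glucose change was lower with *PPZ1* than in control cells for 28 of the 34 members, as it was for 66.1% of all genes, with a median difference of -0.19 for the members and -0.25 for all genes. That count moved with the scaling, and median-of-ratios values were lower for 16 of the 34 members and 52.8% of all genes, and 16 were also lower with the length trend removed. The farthest below were *SDH2* (-1.09 ± 0.18), *KGD1* (-0.93 ± 0.13) and *SDH1* (-0.90 ± 0.15), and the farthest above was *MPC2* (0.80 ± 0.07). With the length trend removed these differences were -1.19, -0.20, -0.40 and 0.46. *KGD1*, whose feature has 3145 bases, moved most towards 0 of these, and *SDH2*, with 901 bases, did not. The order among the members moved too. With the trend removed *IDP1* (0.53) was the farthest above, and *MPC1* (-0.56) came next to *SDH2* at the lower end. The differences of the other succinate dehydrogenase genes, *SDH3* and *SDH4*, were -0.20 ± 0.12 and -0.09 ± 0.16, and -0.40 and -0.32 with the trend removed.

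**Figure D4:**
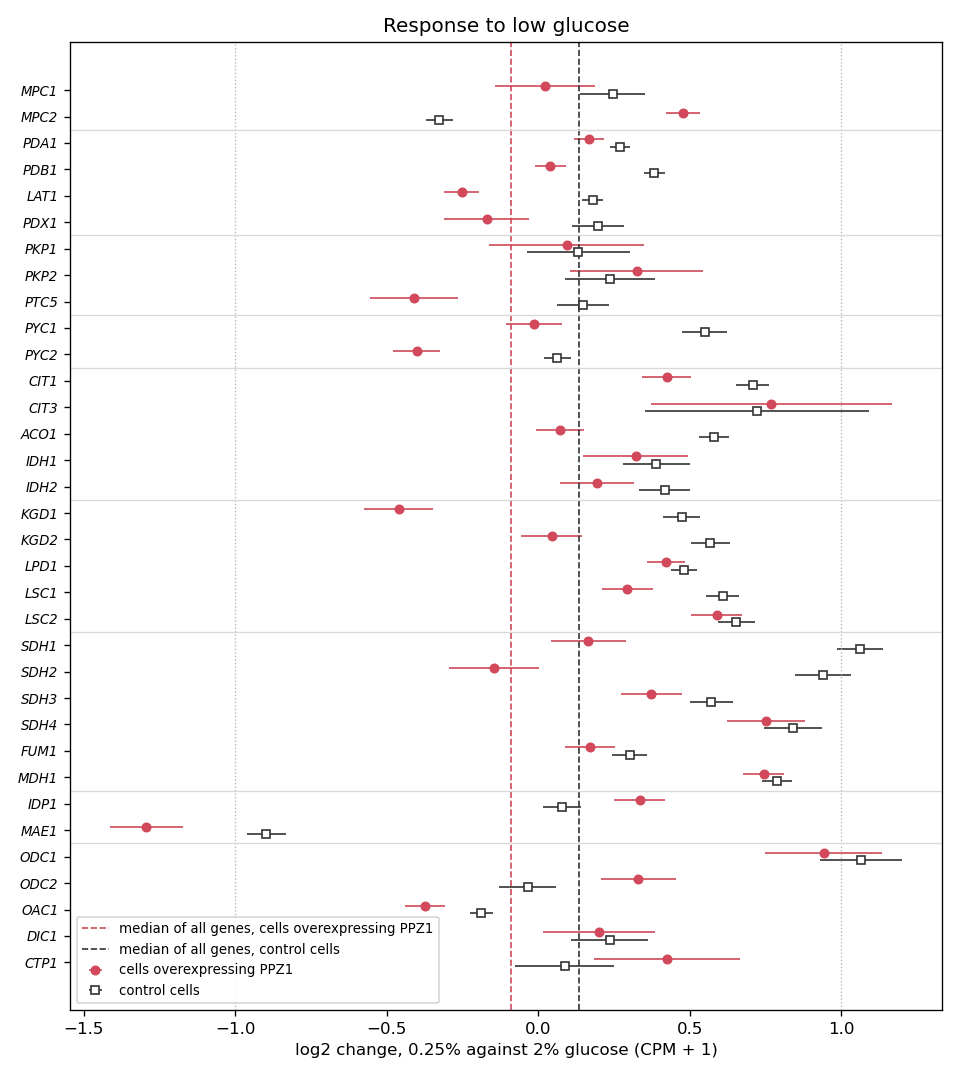
Log2 change of each of the 34 genes in 0.25% against 2% glucose, after adding 1 CPM, in cells overexpressing *PPZ1* (filled circles) and control cells (open squares), with bars for the counting SE, dashed lines for the median of all genes and dotted lines at 2-fold. The strains lie far apart for *SDH1*, *SDH2* and *KGD1* (difference -0.93) and for *MPC2* (difference 0.80, in the opposite direction), and close together for *MDH1*, *SDH4* and *ODC1*.

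Cells overexpressing *PPZ1* and control cells differed little in 2% glucose. Of the members, 1 was at least 2-fold higher with *PPZ1*, *CIT3*, beside 0.26% of all genes, and none was 2-fold lower, beside 0.0743%. *CIT3* rested on few reads, 24 with *PPZ1* (4.84 CPM, 95% interval 3.10 to 7.20) and 10 in control cells (1.75 CPM, 0.84 to 3.22). Its log2 difference was 1.09, and the intervals overlap from 3.10 to 3.22 CPM. *PYC1* came next, with 178 CPM (167 to 191) with *PPZ1* and 101 CPM (93.1 to 109.8) in control cells, a log2 difference of 0.81 ± 0.08. *PYC2*, with which it shares sequence, differed by 0.01 ± 0.05. All other members lay between -0.20 ± 0.19 (*CTP1*) and 0.27 ± 0.11 (*SDH2*), and the median was 0.04 against -0.03 for all genes. Among related genes outside the list, *CIT2* was the only call, at 1.29 ± 0.10.

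In galactose no member reached 2-fold in either direction, beside 0.0186% of all genes higher with *PPZ1* and 0.0743% lower. Among cells with the plasmid copy, *PPZ1* mRNA was also lowest in this medium, at 2705 CPM against 12538 CPM in 2% glucose. Its part in these differences was not tested. The members ran from -0.34 ± 0.02 (*ACO1*) to 0.47 ± 0.14 (*DIC1*), with a median of -0.07 against -0.13 for all genes. *DIC1*, singled out after its values were seen, had 67.0 CPM with *PPZ1* (59.3 to 75.5) and 48.0 CPM in control cells (41.2 to 55.6), and next above came *ODC2* (0.13 ± 0.11) and *CIT3* (0.13 ± 0.10). *PYC1* and *CIT2*, which were higher with *PPZ1* in 2% glucose, differed by -0.02 ± 0.03 and -0.07 ± 0.02 in galactose. Their galactose responses were accordingly smaller with *PPZ1* than in control cells, by -0.83 ± 0.08 for *PYC1*, whereas the median difference in this response was -0.14 for the members and -0.11 for all genes.

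In 0.25% glucose 1 member was at least 2-fold higher with *PPZ1*, *CIT3*, beside 0.818% of all genes, and 1 at least 2-fold lower, *KGD1*, beside 10.3%. *CIT3* again had few reads, 17 with *PPZ1* (8.96 CPM) and 24 in control cells (3.54 CPM), and its log2 difference was 1.13 ± 0.39, with 1.498 without the length trend and 1.36 with the median of ratios. *KGD1* stood at 105 CPM (90.8 to 120.5) with *PPZ1* and 220.4 CPM (209 to 232) in control cells, a difference of -1.06 ± 0.11 that was -0.24 with the length trend removed and -0.81 with the median of ratios. *SDH1* (-0.84 ± 0.11) and *SDH2* (-0.82 ± 0.14) followed, and these became -0.28 and -0.93 without the trend. *MPC2*, with a feature of 490 bases among the shortest members, stood at 547 CPM (515 to 582) with *PPZ1* and 308 CPM (295 to 321) in control cells. Its difference of 0.83 ± 0.05 was 0.55 without the length trend and 1.08 with the median of ratios. *PYC1*, among the longest, differed by 0.25 ± 0.09, and by 1.08 without the trend. The median of the members was -0.11 against -0.24 for all genes, and the correlation with length was -0.35 over the 34 members, given as a description of genes in the same 2 libraries. Among related genes *CIT2* (1.44 ± 0.11) and *RTG1* (-1.93 ± 0.49) were past 2-fold, and stood at 1.74 and -2.15 without the length trend and at 1.70 and -1.74 with the median of ratios.

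**Figure D5:**
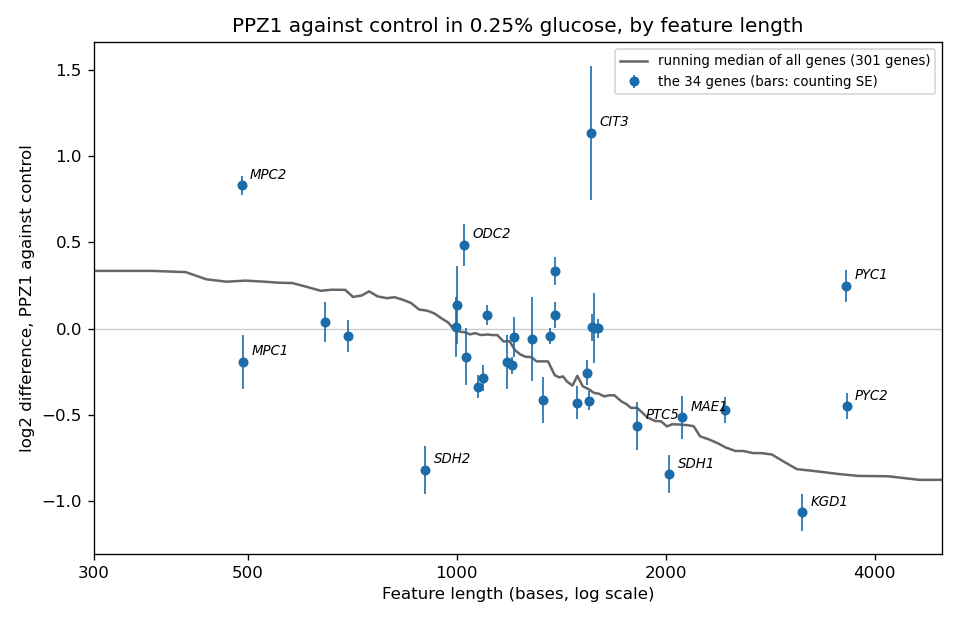
Log2 difference between cells overexpressing *PPZ1* and control cells in 0.25% glucose, for each of the 34 genes, against the length of its feature in bases (log scale), with bars for the counting SE and a line for the running median over all genes ranked by length. The line falls with length, *KGD1* (-1.06) and *SDH1* (-0.84) lie closer to it than to 0, and *SDH2* (-0.82), *CIT3* (1.13) and *PYC1* (0.25) lie away from it.

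Related genes outside the members were read from a list of 32, of which 31 were matched and 29 passed the minimum of 10 CPM. In galactose 15 of the 29 were at least 2-fold higher and 3 lower with *PPZ1*, beside 19.5% and 21.2% of all genes, and 16 were higher and 3 lower in control cells, beside 22.7% and 19.8%. The minimum is a mean that includes galactose. *SFC1*, at 1.21 to 2.63 CPM in the glucose libraries, passed it through galactose, so its call there was set by that minimum. *SHH4* (7.90 to 11.3 CPM) and *SDH6* (7.88 to 11.6 CPM) averaged just under the minimum in the glucose libraries and also passed it through galactose. Their calls there were therefore favoured by the minimum. The highest were *SFC1*, for the succinate and fumarate carrier (7.72 ± 0.32 with *PPZ1*, 7.38 ± 0.27 in control cells, on 1.21 and 2.63 CPM in 2% glucose), *MPC3* (7.06 ± 0.23 and 7.28 ± 0.21), *IDP2*, for the cytosolic NADP-dependent isocitrate dehydrogenase (5.25 ± 0.19 and 5.31 ± 0.17), and *CIT2* (4.56 ± 0.06 and 5.92 ± 0.08). The peroxisomal *IDP3* and *MDH3*, the cytosolic *MDH2* and the *SDH4* homologue *SHH4* were also higher in both strains. The assembly factors *SDH5*, *SDH6* and *SDH8* of succinate dehydrogenase, the oxoglutarate dehydrogenase subunit gene *KGD4* and the phosphatase gene *PTC6* were higher in both as well, and *SDH7* in control cells. Lower genes in both strains included *YHM2*, for a citrate and oxoglutarate carrier (-1.09 ± 0.09 with *PPZ1*, -1.11 ± 0.09 in control cells), and *FLX1*, for a carrier linked to flavin nucleotides (-1.54 ± 0.29 and -1.08 ± 0.25).

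Among the 8 regulator genes, *HAP4* and *HAP2* were at least 2-fold higher in galactose in both strains. *HAP4* stood at 662 CPM in galactose, 83.8 in 0.25% and 49.4 in 2% glucose with *PPZ1*, against 808, 158 and 55.3 CPM in control cells. In 0.25% against 2% glucose its log2 change was 0.75 ± 0.14 with *PPZ1* and 1.497 ± 0.09 in control cells, and 1.03 and 1.32 with the length trend removed. *HAP2*, for a subunit that contacts DNA, stood at 57.1, 15.3 and 18.2 CPM in galactose, 0.25% and 2% glucose with *PPZ1*, against 65.0, 18.3 and 16.1 CPM in control cells. *RTG1* had 5 reads in cells overexpressing *PPZ1* in 0.25% glucose (2.63 CPM, 95% interval 0.86 to 6.15), and 18.7 CPM in galactose and 13.5 CPM in 2% glucose in the same cells. In control cells it stood at 25.1, 12.8 and 12.1 CPM in galactose, 0.25% and 2% glucose. In low glucose the only related genes past 2-fold were *MPC3* (1.65 ± 0.31 with *PPZ1*, 1.01 ± 0.26 in control cells), *HAP4* in control cells and *RTG1* with *PPZ1* (-1.998 ± 0.50). With *PPZ1*, *MPC3* and *RTG1* stood at 1.28 and -2.28 without the length trend and at 1.74 and -1.97 with the median of ratios.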

How the data were processed

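mRNA-Seq of *S. cerevisiae* was read from 1 table of the whole series with 6687 features and 6 libraries, and 0 columns belonged to other samples. Samples were grouped by plasmid and carbon source as labelled. The submitters' processing notes name Bowtie2 as aligner, and reads were quantified in SeqMonk 0.32.1 over coding sequences with 50 bp added on each side, on the opposite strand, with duplicates removed. The deposited values are whole read counts in the library of control cells in 0.25% glucose, which is the largest. The other 5 libraries hold a signal: the authors multiplied each library's read counts by a factor of 1.19 to 3.57. The scaled totals in features, 6.595e+06 to 6.736e+06, came near the total of the largest library without equalling it. Dividing by that factor gave whole reads, within 0.01, for 100% of values. Removal of duplicates without molecular identifiers can lower abundant and short genes most, an effect not measured here. A genome build was not given in the sources used here. All 34 members have R64 coordinates in the table, as do 5977 of all features, and R64 coding coordinates are printed.

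CPM were computed from the deposited values over the largest total (6784469), so they sum to slightly less than 1000000 in the scaled libraries. Log2 changes used CPM plus 1, and SE came from Poisson counting. Intervals are 95% exact Poisson, exact binomial (ratios) or Wilson intervals, and cover counting error only. Genes were compared at a mean level of 10 CPM or more over the 6 libraries, and called at 2-fold. No test was run, as each group has 1 library. The members and lists were chosen with earlier results of these data known. All members are named, with the value in every library for those at least 2-fold changed in any comparison and for the extremes of each role. Related genes are named where 2-fold changed, plus *HAP4*, and 1 of them is not reported here. Alternatives were median-of-ratios and upper-quartile scaling, minimums of 0 and 50 CPM, 5 CPM added, 1.5-fold, and removal of the length trend. Scripts were tested on simulated data. Python 3.11.15, numpy 2.4.6, pandas 2.3.3, scipy 1.17.1 and matplotlib 3.10.9 were used.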

Additional observations from a re-analysis of the deposited data

Results flagged for a closer look

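The 3 members whose low-glucose change had opposite directions in the 2 strains, each beyond its 95% counting error, are given here. That limit is wider than the SE printed with each change. The difference between the strains was not tested, and 17.0% of all genes met the same criterion. *MPC2* had a log2 change of 0.48 ± 0.06 with *PPZ1* and -0.33 ± 0.04 in control cells, a difference of 0.80. *KGD1* had a change of -0.46 ± 0.11 with *PPZ1* and 0.47 ± 0.06 in control cells, a difference of -0.93. *LAT1* had a change of -0.25 ± 0.06 with *PPZ1* and 0.18 ± 0.03 in control cells, a difference of -0.43. With median-of-ratios scaling *MPC2* and *KGD1* still met it and *LAT1* did not (-0.17 with *PPZ1*, 0.06 in control cells), beside 10.9% of all genes. With the length trend removed the differences were 0.46, -0.20 and -0.09. In the galactose response no member and 0.316% of all genes met this criterion.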

How the results depend on the processing

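No paired analysis was possible because each group has 1 library and the labels carry no replicate numbers, and for the same reason no replicate could be left out. The galactose results kept their direction under all alternatives run: the median of the members above that of all genes was 1.55 in control cells with 5 CPM added, and with *PPZ1* 1.499 with no minimum, 1.503 with 5 CPM added and 1.47 without the length trend. The calls near 2-fold moved. Shares of all genes called were computed only for 2-fold on the deposited scaling and for 1.5-fold. Counts of members under the other settings therefore cannot be set beside all genes. *PPZ1* against control in 2% glucose had 0 higher members with a minimum of 50 CPM or 5 CPM added (each removes *CIT3*) and 2 at 1.5-fold, beside 1% of all genes. In 0.25% glucose it had 2 higher with the median of ratios, the upper quartile, the length trend removed or 1.5-fold (4.87% of all genes at 1.5-fold). It had 0 higher with a minimum of 50 CPM or 5 CPM added. Lower members numbered 0 with either scaling or without the length trend and 3 at 1.5-fold, beside 29.2% of all genes. The median above all genes was 0.0581 without the trend. In galactose that median was 0.0244 with a minimum of 50 CPM. For low glucose with *PPZ1*, 1 member was higher with either scaling and 5 at 1.5-fold (beside 8.68% of all genes), and 0 were lower without the length trend. In control cells 0 were higher with either scaling or without the length trend, 1 with 5 CPM added and 9 at 1.5-fold (beside 4.52% of all genes). There 1 was lower (*MAE1*) with either scaling, without the trend or at 1.5-fold (0.502% of all genes at 1.5-fold). Of 52 calls of single members, 48 were kept with the median of ratios, 45 with the upper quartile (which also lost *MPC2* in galactose in both strains and *LPD1* in control cells), 49 with 5 CPM added and 47 without the length trend. The causes were not tested. Depth limits *CIT3*, with 10 to 24 reads in each glucose library, and *RTG1*, with 5 reads in 1 of them.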

Other observations

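*DIC1* appears in the table as the number 37226 and, in another column, as a date. It is the member that stood highest with *PPZ1* relative to control cells in galactose (0.47 ± 0.14). Of related genes under the 10 CPM minimum, *SHH3*, a homologue of *SDH3*, stood at 7.72 CPM in galactose, 2.11 in 0.25% and 1.41 in 2% glucose with *PPZ1*, against 2.97, 0.442 and 0.875 CPM in control cells. YJL045W, a homologue of *SDH1*, stood at 9.47, 1.58 and 3.03 CPM in these media with *PPZ1*, against 9.18, 1.92 and 1.58 CPM in control cells.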
